A study of Mus musculus with 12 samples.

Results

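Ncl encodes nucleolin, and its mRNA was followed through 12 RNA-seq libraries of cultured mouse dorsal root ganglion (DRG) neurons. It was selected by gene name and was 1 of 16617 genes whose transcripts stood in both deposited tables. A single Ncl transcript represented it, among 35313 transcripts in the soma table and 32838 in the neurite table. The 4 groups were GAR+/- neurites (het neurites), GAR+/+ neurites (WT neurites), GAR+/- soma (het soma) and GAR+/+ soma (WT soma), with 3 libraries each. All animals were adult mice of the C57B6 background, and every culture held the dissociated ganglia of 1 mouse, grown for 3 days without a stated drug treatment. The cells sat on inserts with 1 µm pores, through which neurites grow to the underside, so that both compartments can be lysed separately. GAR is the usual name of the glycine- and arginine-rich region of nucleolin, and the series title speaks of nucleolin deficiency in axons. The labels do not give the sequence change of the GAR allele or the cells in which it acts, and by their label het animals keep 1 GAR+ allele. Per the design text, 3 independent biological repeats were made, and no p-value reaches beyond these cultures. The main edgeR fit treated all 12 libraries as independent. It used 1 spread per gene, pooled over the 4 groups with information from other genes.

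Nucleolin is an abundant RNA-binding protein of the nucleolus, where it takes part in ribosomal RNA transcription and processing. It has an acidic N-terminal region, RNA recognition motifs and a C-terminal tail of arginine-glycine-glycine repeats whose arginines are methylated. In sensory axons it is known to bind mRNAs such as those of importin beta1 (Kpnb1) and mTOR (Mtor), and to travel with kinesin-1 motors.

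The counted transcript, ENSMUST00000027438 of gene ENSMUSG00000026234.12, lies on the minus strand of mouse chromosome 1 from 86344719 to 86359400 (GRCm38). Its 14 exons give 8202 bases, made of a 5′ UTR of 177 bases, 707 codons and a 3′ UTR of 5901 bases, or 71.9% of the length. The glycine- and arginine-rich repeats are coded at codons 653 to 693. They were taken as the longest run of arginine-glycine-glycine triplets that start at most 10 codons apart. They run from the last 91 bases of exon 13 (chr1:86350812-86350902) into the first 32 bases of exon 14 (chr1:86350665-86350696). Their coding strand is shown from the GENCODE M21 transcript, with the arginine codons in capitals, because GAR is the usual name of this region. The labels do not give the bounds of the region or of the allele.

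Ncl repeats: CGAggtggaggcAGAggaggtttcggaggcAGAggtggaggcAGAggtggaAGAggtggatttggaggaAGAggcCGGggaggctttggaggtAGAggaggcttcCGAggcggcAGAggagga

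These 41 codons hold 27 for glycine, 10 for arginine, 4 for phenylalanine and 0 for any other amino acid. They spell 9 arginine-glycine-glycine triplets, against 0 in the remaining coding sequence, and 14 codons follow them. GC content was 63.4% in the repeats, compared with 44.7% in the whole coding sequence and 41.6% in the 3′ UTR. The repeats make up 5.80% of the coding bases but 1.5% of the transcript. The deposited counts are totals over the transcript, so they neither show which allele a read came from nor check the genotype labels. The other 5 annotated Ncl transcripts, 4 of them with a retained intron, were in neither table.

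**Figure D1:**
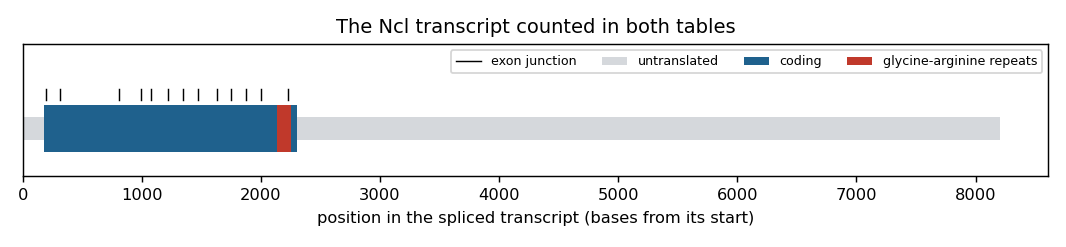
Map of the Ncl transcript counted in both tables, with position in bases from its start on the horizontal axis and exon junctions as ticks. The coding part is blue, the repeats are red and the untranslated parts are grey, with 71.9% of the length in the 3′ UTR.

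Total depth ranged from 14965973 to 32434916 counts per library, and Ncl had 5378 to 9962 counts in each. Counting error alone, at 95%, is between 1.97% and 2.68% of these counts. Libraries of one group can lie closer together than this error. Levels are given as CPM, counts divided by a library size that TMM had adjusted for RNA composition.

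Ncl mRNA stood at a higher level in neurites than in soma, and its order of group means was WT neurites, het neurites, het soma and WT soma. Het neurites had 425.9, 382.2 and 332.2 CPM in libraries 1, 2 and 3, from 8023, 9962 and 8056 counts. WT neurites had 463.3, 414.8 and 321.5 CPM, from 6623, 6167 and 8263 counts. The 2 neurite groups overlapped, and library 3 was the lowest in both. Het soma had 250.7, 257.9 and 290.2 CPM, from 8308, 6640 and 6330 counts. WT soma had 217.5, 237.3 and 239.4 CPM, from 5657, 6127 and 5378 counts. All neurite libraries were above all soma libraries, and the nearest pair was WT neurites 3 at 321.5 CPM and het soma 3 at 290.2 CPM. How many of all genes separate in this way over both genotypes was not computed. Library 3 was the highest in both soma groups, so the compartments were closest there. The means were 380 ± 46.9 CPM in het neurites, 399.9 ± 72.1 CPM in WT neurites, 266 ± 21.1 CPM in het soma and 231 ± 12.1 CPM in WT soma (SD, n = 3 each). Relative spread was wider in neurites, with coefficients of variation of 12.3% in het and 18.0% in WT, than in soma, with 7.91% in het and 5.21% in WT.

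**Figure D2:**
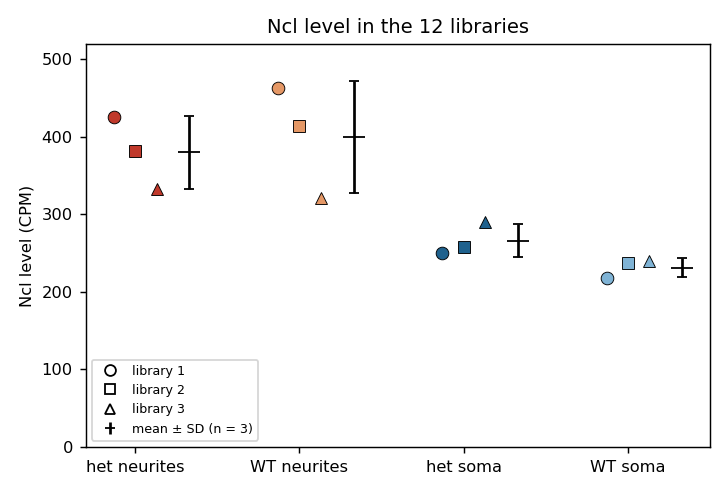
Ncl level in CPM (vertical axis, from 0) in each library of the 4 groups, with mean ± SD (n = 3) beside the points. The neurite libraries lie between 321.5 and 463.3 CPM, above the soma libraries, which lie between 217.5 and 290.2 CPM.

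In WT cultures Ncl rose in neurites relative to soma by a log2 fold change of 0.79 ± 0.13 (SE), or 1.73-fold with a 95% interval of 1.43 to 2.09 (edgeR quasi-likelihood test, adjusted p = 0.00581 over 15990 genes). The same threshold, an adjusted p below 0.05, was passed by 3.1% of the genes in this comparison, 385 higher (2.41%) and 110 lower (0.688%) in neurites. With upper-quartile scaling the split was 228 higher and 189 lower, and with library totals alone it was 244 higher and 283 lower. With the replicate number within each genotype as a block, 1489 genes passed, and Ncl was called as well (log2 0.77, adjusted p = 0.00124). By its p-value Ncl was gene 56 of those tested, and 103 of the 385 higher genes had a larger fold change. WT neurites and WT soma did not overlap, and neither did 12.4% of all tested genes in this direction. By replicate number, the ratio of WT neurites to WT soma was 2.13, 1.75 and 1.34 for numbers 1, 2 and 3. When the libraries of both WT groups were fitted alone the fold change was 0.78 and the adjusted p was 0.0531, so that call was lost, as were most others, with 40 genes passing. Ncl passed whichever of the 12 libraries was left out, while the count of genes lay between 93 without WT soma 2 and 1081 without WT neurites 2. In bulk RNA of this kind, fewer cells of a type and less RNA per cell cannot be told apart, and this holds for every level given here.

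In het cultures the fold change of neurites over soma was 0.51 ± 0.13, or 1.43-fold with a 95% interval of 1.18 to 1.73. It did not pass (edgeR adjusted p = 0.0887), in a comparison where 0.638% of the genes passed, 87 of them higher (0.544%) and 15 lower (0.0938%). Het neurites and het soma did not overlap for Ncl, nor for 11.7% of all genes in this direction. DESeq2's Wald test gave 0.52 for Ncl with an adjusted p of 0.0107, past the threshold. The count of genes was 0 without het neurites 1, het soma 1 or het soma 2, 1 without het soma 3, 24 without het neurites 3 and 191 without het neurites 2. Over both genotypes, the neurite libraries exceeded the soma libraries by 0.64 log2 units. An exact 2-sided permutation within genotype gave p = 0.005, the smallest that its 400 arrangements can give. It shuffled neurite and soma libraries as if they were independent, although same-numbered WT libraries paired. This p does not allow for that pairing and can be too small or too large. No permutation within replicate numbers was run. Within 1 genotype, 3 libraries against 3 cannot go below 0.1 in an exact permutation test, and both genotypes gave 0.1.

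The comparison of genotypes asks whether the level of Ncl mRNA itself differs in GAR+/- cultures. In neurites, het over WT was -0.07 ± 0.13 on the log2 scale, a ratio of 0.951 with a 95% interval of 0.786 to 1.15 (edgeR adjusted p = 0.794). The libraries overlapped, and 3.27% of the genes passed in this comparison, 79 of them higher (0.494%) and 444 lower (2.78%) in het. This count was 0 with the neurite libraries alone and without het neurites 2, het neurites 3 or WT neurites 3, and 1767 without WT neurites 2. With library totals alone it was 95 higher and 197 lower, and with upper-quartile scaling 125 higher and 290 lower. In soma, het over WT was 0.20 ± 0.13, a ratio of 1.15 with a 95% interval of 0.951 to 1.39 (edgeR adjusted p = 0.697). The 3 het soma libraries were all above the 3 WT soma libraries, as were those of 8.86% of all genes, and the exact permutation p was 0.1. None of the genes passed in soma (0.0%), with 1464 at an unadjusted p below 0.05, while DESeq2 called 315 and a fit with the replicate number as a block called 520. Without het neurites 1 it was 64, and without WT neurites 2 it was 40. Both intervals for Ncl include a ratio of 1.

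Within each of the authors' deposited tables the transcript gave values of the same size. The authors' deposited table for neurites gave a log2 fold change of -0.04 for het over WT (p = 0.755 from the authors' edgeR, false discovery rate 0.954), where 3.02% of its transcripts were below 0.05. The authors' deposited table for soma gave 0.21 (p = 0.0222 from the authors' edgeR, false discovery rate 0.228), where 4.24% were below 0.05. Ncl passed in neither of the authors' deposited tables.

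The neurite-to-soma change of Ncl was 0.28 log2 units smaller in het than in WT as a point estimate, and this difference was not shown. The interaction was -0.28 ± 0.18, with a 95% interval of -0.66 to 0.11 (edgeR adjusted p = 1.0). None of the genes passed this test (0.0%), 202 had an unadjusted p below 0.05, and DESeq2 and limma voom called 0 as well. The call in WT and the missed threshold in het therefore do not show that the genotypes differ. The 5 contrasts share libraries: a low WT soma level enters the WT compartment contrast, the soma genotype contrast and the interaction together.

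**Figure D3:**
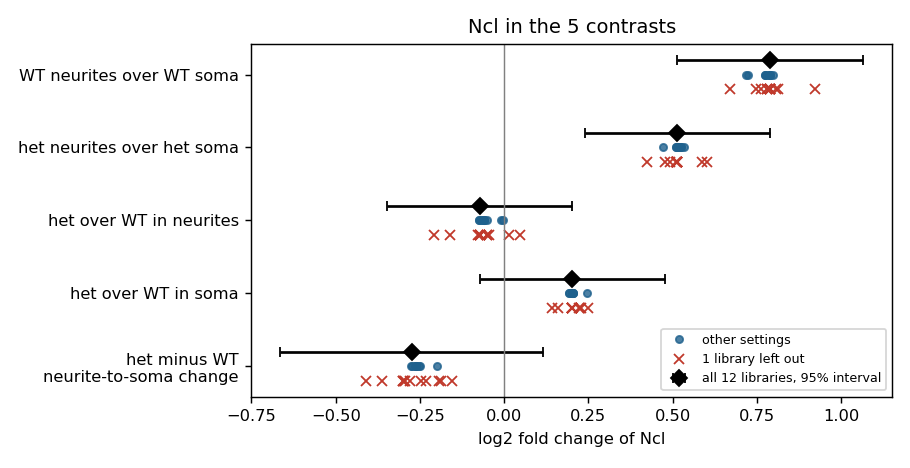
Log2 fold change of Ncl (horizontal axis) in the 5 contrasts, with diamonds and 95% intervals from all 12 libraries, blue points for other settings and red crosses for fits without 1 library. WT neurites over WT soma stays between 0.67 and 0.92 without any 1 library, and het over WT in neurites lies on both sides of 0.

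Levels of different genes were compared per length, as TPM, in which the counts per kilobase of a library are rescaled to one total over all genes, so that TPM need not follow CPM from library to library. With the coding length, Ncl had 184.7 to 248.5 TPM in het neurites, 190.6 to 260.0 in WT neurites, 142.1 to 169.4 in het soma and 127.5 to 137.5 in WT soma. It ranked 881 to 1174 in het neurites and 870 to 1185 in WT neurites among 13409 genes, then 1299 to 1517 in het soma and 1607 to 1703 in WT soma. With this length Ncl was thus between the 87.3 and 93.5 percentiles of these genes in every library. Among 97 nucleolar genes it held rank 4 to 6 in neurites and rank 6 to 8 in soma. With the whole transcript length, in which the long 3′ UTR counts, these nucleolar ranks were 9 to 14 of 103 in neurites and 18 to 26 in soma. Among 16549 genes Ncl was then between the 81.9 and 90.6 percentiles. Which length fits the reads was not tested.

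Genes whose levels followed Ncl most closely were ranked by Pearson's r of log2 CPM over the 12 libraries, among 7771 genes with a mean of at least 10 CPM. The libraries share their scaling and the 4 groups, and r ranged from -0.92 to 0.99 with a median of 0.08. Only 33 genes (0.425%) had r above 0.9. The closest was Gspt1 (r = 0.988), a translation termination factor, with 56.8 and 58.3 CPM in het and WT neurites and 43.2 and 40.9 CPM in het and WT soma. It was followed by Upf2 (0.959), of nonsense-mediated mRNA decay, and by Eif5b (0.953), which joins the ribosomal subunits at initiation. Anp32b (0.950) encodes an acidic nuclear phosphoprotein, Gfpt1 (0.949) an enzyme of hexosamine synthesis and Frs2 (0.948) an adaptor of growth factor receptors. Dnttip2 (0.947) and Cebpz (0.940) encode nucleolar proteins, Uso1 (0.939) a Golgi tether and Eif3b (0.939) a subunit of an initiation factor. The choice of these 10 genes used the same libraries, so their own compartment differences are not independent of it and were not tested. At the opposite end were Tagap1 (-0.92), Bche (-0.89), which encodes butyrylcholinesterase, Zfyve28 (-0.88), Arl6ip1 (-0.87) and Tmem41a (-0.86). Spearman's rho kept 4 of the 10 closest genes. After removal of group means 1 of them, Gspt1 (r = 0.951), was still among the 10 closest.

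Ncl is one of many nucleolar genes, and 102 of 105 listed ones were tested. In WT neurites over WT soma 8 of them rose and 0 fell, which is 7.84% against 2.41% of all tested genes for higher calls. Their median log2 fold change was 0.16, with 0.01 over all tested genes, and it ranged from -0.51 to 0.65, so none of them reached the 0.79 of Ncl. The count moved with single libraries and was 1, 2 and 3 without WT soma 2, WT soma 3 and WT soma 1, 2 without WT neurites 1, 11 and 12 without WT neurites 2 and WT neurites 3, and 0 with the WT libraries alone. It was 4 with upper-quartile scaling, 16 with the replicate number as a block and 14 with DESeq2. Among all tested genes, higher calls also fell with upper-quartile scaling, and the block and DESeq2 called more genes than the main fit. Calls in either direction over all genes lay between 93 and 1081 without 1 library. The share of higher calls is not given for each of these fits, so the moves are not read as particular to the list. Of the 8 nucleolar genes that rose, Gtpbp4 had the largest change (0.65, edgeR adjusted p = 0.00468) and encodes a GTPase of large subunit assembly. Large subunit assembly also gave the helicase gene Ddx21 (0.58, edgeR adjusted p = 0.0256) and Mybbp1a (0.60, edgeR adjusted p = 0.0283), 3 of 38 in all. Small subunit processing gave Bms1 (0.47), Utp6 (0.43) and Utp14a (0.47), 3 of 36. RNA polymerase I gave its subunit gene Cd3eap (0.63), 1 of 15, and the small nucleolar RNP list gave the assembly factor Naf1 (0.54), 1 of 13. Of that last list Nhp2 (0.52), Nop58 (0.40) and Nolc1 (0.38) did not pass. Npm1, which encodes the abundant nucleolar chaperone nucleophosmin and was named after its values were seen, had 0.38 (edgeR adjusted p = 0.316).

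In het neurites over het soma 0 of the 102 nucleolar genes passed, against 0.544% of all genes for higher calls. Their median was 0.15, close to that in WT, and 84 had a positive fold change, as did 80 in WT. Only Utp18 (0.63, edgeR adjusted p = 0.283), named after its values were seen, exceeded the 0.51 of Ncl. For het over WT, 0 of 102 passed in either compartment, with medians of -0.07 in neurites and -0.02 in soma. In soma only Wdr36 (0.22), also named after its values were seen, exceeded the 0.20 of Ncl, while 51 of the 102 exceeded Ncl in neurites.

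Ncl was also set against the mean log2 CPM of these 102 genes within each library, a ratio in which the scaling between libraries cancels. It stood above that mean by 4.11, 3.96 and 3.76 log2 units in the 3 het neurite libraries and by 4.05, 4.08 and 3.71 in WT neurites. It stood above it by 3.48, 3.53 and 3.67 in het soma and by 3.17, 3.42 and 3.41 in WT soma. The compartments therefore did not overlap in either genotype, with differences of 0.38 in het and 0.61 in WT. Between genotypes the neurites overlapped (difference -0.00), and the soma did not (0.23). How often other genes fail to overlap in such ratios was not computed, here or for the lists below.

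The lists of genes that act on nucleolin or carry it are short, and with 3.1% of all genes passing in WT neurites over WT soma, 0 calls in them says little. Of 5 kinase genes whose products phosphorylate nucleolin, 0 passed in WT neurites over WT soma, where Csnk2a1 had 0.12, Csnk2a2 0.31, Csnk2b 0.15, Cdk1 0.67 and Prkcz -0.22 on the log2 scale. In het over WT neurites Cdk1, also a gene of dividing cells, fell by 1.44 (edgeR adjusted p = 0.0448). Of 11 tested genes of arginine methylation 0 passed in any contrast, against at most 3.27% of all genes, and in WT neurites over WT soma Prmt8 (-0.77, edgeR adjusted p = 0.0508) and Prmt1 (-0.40, edgeR adjusted p = 0.418) were at the low end. Of 6 tested kinesin-1 genes 0 passed in any contrast, against the same share of all genes. Among the heavy chains Kif5b had 0.48 (edgeR adjusted p = 0.0734), Kif5a 0.11 and Kif5c 0.10 in WT neurites over WT soma, and the light chains Klc1, Klc2 and Klc4 had -0.30, -0.16 and -0.13. Of 10 tested genes of the Myc network, which drives nucleolar genes in other settings, 0 passed in any contrast, and the WT median was 0.01. The nucleolin-bound mRNA Kpnb1 had 0.29 ± 0.11 in WT neurites over WT soma (edgeR adjusted p = 0.152) and -0.30 in het over WT neurites (edgeR adjusted p = 0.138). Mtor had -0.18 ± 0.10 (edgeR adjusted p = 0.369) and -0.03 (edgeR adjusted p = 0.917) in the same contrasts.

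**Figure D4:**
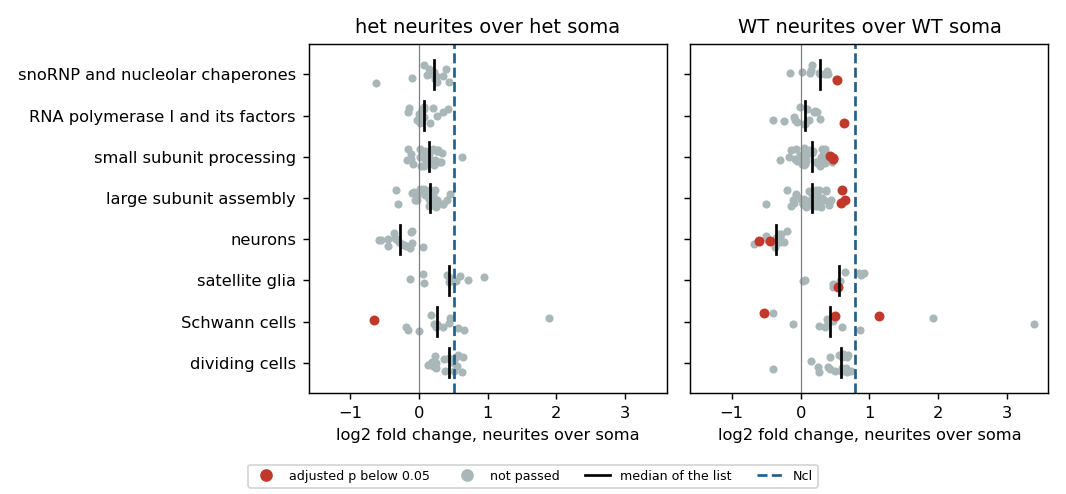
Log2 fold change of neurites over soma (horizontal axis) for each tested gene of 8 lists in het and WT cultures, with red points for adjusted p below 0.05, black bars for list medians and a dashed line for Ncl. The line lies right of all nucleolar and dividing-cell genes in WT, at 0.79, and within the range of the satellite glia and Schwann cell genes in both panels.

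The neurite side was checked against markers of neurons and of other cells, since Ncl is expressed in most cell types. Of 16 neuron genes, 2 fell in WT neurites over WT soma, namely Rbfox3 (-0.60, edgeR adjusted p = 0.0202), a nuclear RNA-binding protein, and Uchl1 (-0.45, edgeR adjusted p = 0.0445), a deubiquitinase, where 0.688% of all genes fell, and the median was -0.36. The count was 4 with upper-quartile scaling or library totals, 9 with the block, 5 with DESeq2, 7 without WT neurites 2, and 0 without WT neurites 1, WT neurites 3, WT soma 1 or WT soma 2 and with the WT libraries alone. Among all tested genes, both scalings gave more lower calls than the main fit, and the block and DESeq2 gave more calls in total. By their medians, glial and dividing-cell genes lay on the side of Ncl in WT: the median was 0.56 for 10 satellite glia genes, 0.43 for 14 Schwann cell genes and 0.58 for 19 genes of dividing cells. Schwann cell genes ranged from -0.53 to 3.38, and their summed level, given below, was not higher in neurites. Sox2 (0.54, edgeR adjusted p = 0.0196) passed among satellite glia genes, and 0 of 19 passed among dividing-cell genes, where 2.41% of all genes rose. With the block, 4 of 10 satellite glia genes, 4 of 14 Schwann cell genes and 9 of 19 dividing-cell genes rose, and with the WT libraries alone 0 in each list. The block also called more of all tested genes than the main fit, and the WT libraries alone fewer. Without WT soma 1 or WT soma 2, 0 in each list rose. Among Schwann cell genes Prx (1.14, edgeR adjusted p = 0.0187) and Sox10 (0.50, edgeR adjusted p = 0.0239) rose, and Ngfr, which sensory neurons also express, fell (-0.53, edgeR adjusted p = 0.0486). In het neurites over het soma the medians were -0.27 for neurons, 0.44 for satellite glia, 0.26 for Schwann cells and 0.44 for dividing cells, and only Ngfr passed, which fell by 0.64 (edgeR adjusted p = 0.0484). Fibroblast and endothelial genes had WT medians of 0.28 and 0.15, macrophage genes -0.36 and nuclear long RNAs -0.63, with 0 higher calls in these lists, against 2.41% of all genes, and 1 of 7 nuclear long RNAs, Rian (-0.73, edgeR adjusted p = 0.0136), fell.

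The summed level of the dividing-cell genes was 884 to 1582 CPM in het neurites, 1671 to 2964 CPM in WT neurites, 684 to 930 CPM in het soma and 1377 to 1825 CPM in WT soma. Satellite glia genes summed to 917 to 1208 CPM in het neurites, 1376 to 1392 CPM in WT neurites, 834 to 930 CPM in het soma and 916 to 1203 CPM in WT soma. Schwann cell genes summed to 1609 to 1967 CPM in het neurites, 2095 to 2152 CPM in WT neurites, 1947 to 2120 CPM in het soma and 2071 to 2249 CPM in WT soma. The mean Schwann cell sum of neurites over that of soma was 0.874 in het and 0.977 in WT, although the list medians were positive. Neuron genes summed to 13233 to 16976 CPM in het neurites, 10898 to 14713 CPM in WT neurites, 15992 to 19727 CPM in het soma and 14600 to 17051 CPM in WT soma. None of the tested markers was at 0 in any library. These levels moved with compartment, genotype or both, and their part in the level of Ncl was not tested. Nuclear long RNAs summed to 4860 to 10157 CPM in het neurites and 8287 to 9230 CPM in het soma. In WT they summed to 6286 to 10196 CPM in neurites and 8131 to 10714 CPM in soma. These sums overlapped between compartments in both genotypes, although the medians above were negative.

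Set against these lists library by library, the rise of Ncl depended on the list. Against the mean log2 level of neuron genes, Ncl was higher in neurites than in soma by 0.78 log2 units in het and by 1.16 in WT, without overlap. Against satellite glia genes the difference was 0.16 in het and 0.26 in WT, and the libraries overlapped in both. Against dividing-cell genes it was 0.15 in het and 0.35 in WT, again with overlap. Against Schwann cell genes it was 0.29 in het, without overlap, and 0.27 in WT, with overlap.

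Between genotypes the glial and dividing-cell ratios were further apart than the level of Ncl. Against dividing-cell genes Ncl was higher in het than in WT by 0.89 log2 units in neurites and by 1.10 in soma, without overlap. Against satellite glia genes it was higher by 0.65 in neurites and by 0.75 in soma, and against Schwann cell genes by 0.58 in neurites and by 0.55 in soma, all without overlap. Against fibroblast genes the difference was 0.53 in neurites, with overlap, and 0.81 in soma, without overlap. It was -0.31 and -0.11 against macrophage genes and 0.25 and 0.25 against endothelial genes, all with overlap. The share of all genes without overlap in such ratios was not computed. Among the marker genes themselves, 9 of 19 dividing-cell genes, 3 of 10 satellite glia genes and 3 of 14 Schwann cell genes fell in het over WT neurites, where 2.78% of all genes did. In all 3 lists these counts were 0 without het neurites 2, het neurites 3 or WT neurites 3 and with the neurite libraries alone, as was the count over all genes. Without WT neurites 1 they were 0, 1 and 1, and without WT neurites 2 they were 16, 5 and 6. Without 1 soma library the first count lay between 2 and 6, with library totals alone it was 1 and with upper-quartile scaling 6. In soma 0 of these genes passed, as of all genes. With the replicate number as a block, 17 dividing-cell, 3 satellite glia and 3 Schwann cell genes were called lower in het soma, and with the soma libraries alone 10, 4 and 3. Both of these fits, unlike the main fit, also called genes outside these lists. Their totals over all genes are given in the closing section on processing. The share of lower calls over all genes is not given for them, so these list counts cannot be weighed against it. Relative to neuron genes, Ncl in het over WT was -0.33 in neurites and 0.05 in soma, with overlap in both.

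**Figure D5:**
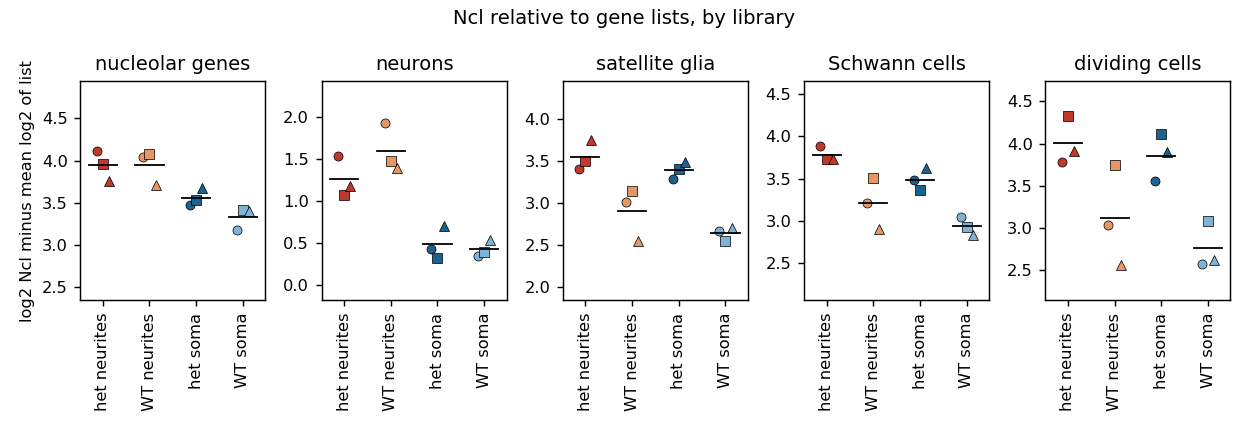
Log2 level of Ncl minus the mean log2 level of the genes in a list (vertical axis), by library and group, with bars for group means (n = 3) and circles, squares and triangles for libraries 1, 2 and 3. Neurites lie above soma for nucleolar and neuron genes, and for satellite glia and dividing-cell genes the het libraries lie above the WT libraries of the same compartment.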

How the data were processed

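Stranded libraries were prepared from total RNA after removal of ribosomal RNA, per the labels' protocols. CASAVA 1.8.2, edgeR and the mm10 (GRCm38) genome are named in the submitters' processing notes, while the aligner, the counter and its treatment of multiply matching reads stay not given in the sources used here. Raw counts per transcript were deposited by the authors in 1 table per compartment, in which each transcript has at least 5 counts in at least 3 of 6 libraries. The log2 fold changes between genotypes are the authors' own, as deposited, each with its p-value and false discovery rate, per the file headers. A further 24 per-sample columns were not used, and 0.574% to 0.694% of the counts had no gene name and were left out.

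Counts were summed per gene over the 31420 named transcripts in both tables. The robust quasi-likelihood model of edgeR 4.0.16 (R 4.3.3) was fitted to all 12 libraries with 1 mean per group, after the low-count filter filterByExpr and TMM scaling. P-values were adjusted by Benjamini-Hochberg over 15990 genes, with a threshold of 0.05. The SE is the log2 fold change divided by the square root of F. Ncl alone was tested with exact permutations. The fit was tested on simulated data. DESeq2 1.42.0 and limma 3.58.1 (voom) were alternatives, with other scalings, filters, features, libraries and a replicate block. Counts within lists under these alternatives were added after seeing the data. Within WT, same-numbered neurite and soma libraries deviated together from their group means (r = 0.579, 0.594 and 0.405 over 7772 genes), and het and WT soma did so too (0.422, 0.559 and 0.215). The numbers therefore paired these groups. Annotation came from GENCODE M21, which held 97.6% of the 36285 transcripts.

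Ncl, the lists and the tests were chosen with earlier results of these data known. Named are Ncl, Kpnb1, Mtor, the 10 genes most and 5 least like Ncl, up to 5 by deviations from group means, and up to 4 genes per list with the smallest p in WT, with all kinases and kinesins. Exceptions are marked or are the genes that passed.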

Additional observations from a re-analysis of the deposited data

How the results depend on the processing

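Of the 5 Ncl results, het over WT in soma and the interaction kept their direction and stayed above the threshold in every fit run. WT neurites over WT soma passed in every fit (adjusted p 5.4e-06 to 0.0396) except that of the libraries of both WT groups alone (0.78, adjusted p = 0.0531). Het neurites over het soma passed with the replicate block (0.51, adjusted p = 0.0298), although its numbers did not pair (r = 0.205, 0.518 and -0.241), and with DESeq2 (0.52, adjusted p = 0.0107). Het over WT in neurites turned to 0.015 without het neurites 3 and to 0.046 without WT neurites 1 (adjusted p = 0.970 and 0.905). Without 1 library at a time, the log2 fold changes ran from 0.67 to 0.92 (WT neurites over soma), 0.42 to 0.60 (het neurites over soma), -0.21 to 0.05 (het over WT, neurites), 0.14 to 0.25 (het over WT, soma) and -0.41 to -0.16 (interaction). Under the other settings they ran from 0.72 to 0.80, 0.47 to 0.53, -0.07 to -0.00, 0.19 to 0.25 and -0.28 to -0.20. With the block, het over WT in soma was 0.20 (adjusted p = 0.499) and the interaction -0.26, and no other call of Ncl changed; the numbers of het and WT neurites did not pair (r = 0.401, 0.487 and -0.123). The interaction uses all 4 groups, so no fit of fewer groups exists.

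Counts of genes moved more than Ncl did. WT neurites over WT soma gave 495, against 1489 with the block, 1108 with DESeq2 and 40 with both groups alone, and 93 to 1081 without 1 library. Het neurites over het soma gave 102, against 671, 488 and, with upper-quartile scaling, 41 (30 higher and 11 lower), and 0 to 191 without 1 library. Het over WT in neurites gave 523 (79 higher and 444 lower), against 1696, 1200, 0 with both groups alone (0 to 1767 without 1 library) and 292 with library totals (95 higher and 197 lower); upper-quartile scaling gave 125 higher and 290 lower. Het over WT in soma gave 0, against 520, 315, 388 with both groups alone and 19 transcripts, and 0 to 64 without 1 library. In het over WT neurites the block gave 18 lower dividing-cell genes, against 9. The causes were not tested. With 3 cultures a group and a spread pooled over both compartments, the 95% intervals of Ncl for het over WT set what the main fit could see. They were -0.35 to 0.20 in neurites and -0.07 to 0.48 in soma (log2). Coefficients of variation of Ncl were smaller in soma (7.91% in het and 5.21% in WT) than in neurites (12.3% in het and 18.0% in WT). Counting error is at most 2.68% of a library's count.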

Other observations

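After removal of the 4 group means, the genes closest to Ncl over the 12 libraries were Supt16 (r = 0.980), a subunit of the histone chaperone FACT, Cpsf3 (0.957), the endonuclease of mRNA 3′ end formation, Gspt1 (0.951), Sart3 (0.929), a splicing factor, and Ddx19b (0.928), an mRNA export helicase. Ddx19b had r = 0.05 with Ncl before that removal. These 12 deviations share their libraries and scaling, and r over all 7771 genes had a median of 0.11 and reached -0.99 at the other end.

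The small nucleolar RNA Snora75 lies in an intron of Ncl and had few counts: 2, 8 and 1 in het neurites, 7, 2 and 12 in WT neurites, 12, 8 and 13 in het soma and 3, 10 and 5 in WT soma. Per 10000 Ncl counts this was 4.22 in het neurites, 9.97 in WT neurites, 15.5 in het soma and 10.5 in WT soma. It passed in none of the 5 contrasts (edgeR).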
